A study of Mus musculus with 10 samples.

Results

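The Hox genes of the clusters a to d and the long noncoding RNA Mira of the Hoxa cluster were followed across the libraries of MYC/SMARCA4 tumors, postnatal cerebella and SHH MB. They were taken by symbol from the deposited counts per gene, which list 50559 genes. The 39 genes described here comprise 11 of the Hoxa cluster (Mira included), 10 of Hoxb, 9 of Hoxc and 9 of Hoxd. RNA came from FFPE tissue in 10 samples of 3 groups. The 4 MYC/SMARCA4 tumors grew from granule cell precursors (GCPs) of Math1-creERT2::Smarca4fl/fl pups, in which tamoxifen had induced loss of SMARCA4. The GCPs were transduced with a lentivirus for murine Myc and GFP and transplanted without sorting into cerebella of CD1nu/nu mice, with label ages of 112, 96, 89 and 79 days for tumors 1 to 4. The 3 P7 cerebella came from Math1-creERT2::Smarca4fl/fl mice of 7 days and had also received tamoxifen, but there the deletion is mosaic and limited to the Math1 lineage of a whole cerebellum, whereas the study describes the tumor cells as lacking SMARCA4 throughout. The extent of SMARCA4 loss, MYC, transplantation and age thus differ between these groups together and cannot be told apart. The 3 SHH MB came from Math1-cre::Smofl/wt mice with a label age of 7 days. Between the tumors and SHH MB, the Smo allele, SMARCA4 loss, MYC, transplantation and label age differ together and likewise cannot be told apart. Math1 drives recombination in the granule cell lineage, whereas a cerebellum or a punch of tumor tissue also holds cells outside this lineage. The athymic hosts keep their own cerebellar, vascular and myeloid cells. In such bulk RNA, fewer cells of a type and less RNA per cell cannot be told apart.

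Hox genes encode homeodomain transcription factors that give cells their position along the body axis. Within a cluster they lie in the order in which they are used, from paralog group 1 at the 3′ end, expressed early and far anterior, to paralog group 13 at the 5′ end, expressed late and posterior. The cerebellum develops mainly from rhombomere 1, the hindbrain segment in front of the Hox domain, and granule cells are therefore not known for Hox expression. Polycomb complexes hold the clusters silent, trithorax proteins of the MLL family keep them active, retinoic acid and Cdx proteins turn them on during development, and Pbx and Meis proteins bind DNA together with Hox proteins.

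Total counts per library ranged from 5663491 to 9352109, and between 170 and 3128 of them fell on the 39 genes. Levels are given as CPM on library sizes scaled by TMM, and 3 counts, the floor used here, equal 0.304 to 0.737 CPM. Myc reached 151 to 1570 CPM in the tumors against 12.9 to 14.2 CPM in P7 cerebella and 33.4 to 45.4 CPM in SHH MB. Smarca4 was at 135 to 242 CPM in the tumors, 219 to 280 CPM in P7 cerebella and 486 to 585 CPM in SHH MB; reads outside the deleted exons do not check the deletion. Tumor 1 stood apart from the other tumors. It had the lowest Myc level among the tumors, 10 myelin genes at a summed 4100 CPM against 122 to 822 CPM in tumors 2 to 4, and a TMM factor of 0.62, and only 170 counts on the 39 genes. The tests of the tumors are therefore given with and without it. Setting it apart was a choice made after the data had been seen, partly from its low counts on these same genes. Calls and low p-values of members without tumor 1 are thus no separate support.

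The windows in front of 2 of these genes are shown first because they are the genes with the highest level per kilobase of transcript in the tumors within the cluster that was active in 3 tumors (Hoxa) and within a cluster whose summed level exceeded that of all controls in no tumor (Hoxd). Both sequences are bases upstream of the RefSeq start, taken from RefSeq's table on GRCm38.p6 and placed on GRCm39 by an exact match, 5′ to 3′ on the strand of the gene. Capitals mark CG dinucleotides.
Hoxa5: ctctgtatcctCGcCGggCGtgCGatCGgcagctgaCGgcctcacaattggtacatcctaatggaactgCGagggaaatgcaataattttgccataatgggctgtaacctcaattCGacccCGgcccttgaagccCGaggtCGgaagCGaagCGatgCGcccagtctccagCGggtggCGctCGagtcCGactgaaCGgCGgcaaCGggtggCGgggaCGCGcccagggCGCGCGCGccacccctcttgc
Hoxd10: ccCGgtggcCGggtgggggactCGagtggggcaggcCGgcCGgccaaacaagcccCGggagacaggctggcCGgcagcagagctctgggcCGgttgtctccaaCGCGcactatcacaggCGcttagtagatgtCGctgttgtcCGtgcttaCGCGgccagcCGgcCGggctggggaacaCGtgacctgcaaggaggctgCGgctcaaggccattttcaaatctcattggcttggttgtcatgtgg
The window of Hoxa5 lies at chr6:52181568-52181817 on the minus strand and holds 28 CG dinucleotides in 250 bases. The window of Hoxd10 lies at chr2:74521985-74522229 on the plus strand and holds 19 in 245 bases. Over all 32851 windows of 250 bases the median was 6, so both windows lie above it although the genes behind them differ in level. The E-box CACGTG, the letters bound by MYC with MAX, is absent from the Hoxa5 window and present once in that of Hoxd10, and 6.02% of all windows hold it. Neither window holds TGATTNAT, letters bound by Hox with Pbx (2.82% of all windows), or TATAAA (12.37%), searched on both strands. Such matches describe the letters in these windows.

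Hoxa2 to Hoxa10 and Mira formed 1 block of 9 neighbouring genes whose level was high in tumors 2, 3 and 4. The limits of this block, and of Hoxb2 to Hoxb8 below, were read from these same levels. Counts, sums and medians over either set therefore describe the levels and are no separate support. In each of these 3 tumors, all 9 genes were above all 6 control libraries. In tumor 1 none of the 39 genes was. Tumor 2 exceeded all 6 control libraries in these 9 genes and in no other member, tumor 3 in 15 members and tumor 4 in 16. As a background, 32.5%, 29.3%, 25.8% and 27.8% of the 29952 genes tested did so in tumors 1 to 4. In the other direction, 20, 25, 2 and 8 members lay below all 6 control libraries in tumors 1 to 4, beside 38.0%, 41.2%, 23.8% and 30.3% of genes tested. The summed level of the 9 genes was 16.5, 220, 350 and 173 CPM in tumors 1 to 4. It was 16.9, 28.5 and 29.1 CPM in P7 cerebella 1 to 3 and 19.1, 13.7 and 9.58 CPM in SHH MB 1 to 3. The 9 genes held 93.7%, 80.5% and 59.7% of the counts of all 39 genes in tumors 2, 3 and 4, but 39.4% in tumor 1 and 12.3% to 23.0% in the controls.

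**Figure D1:**
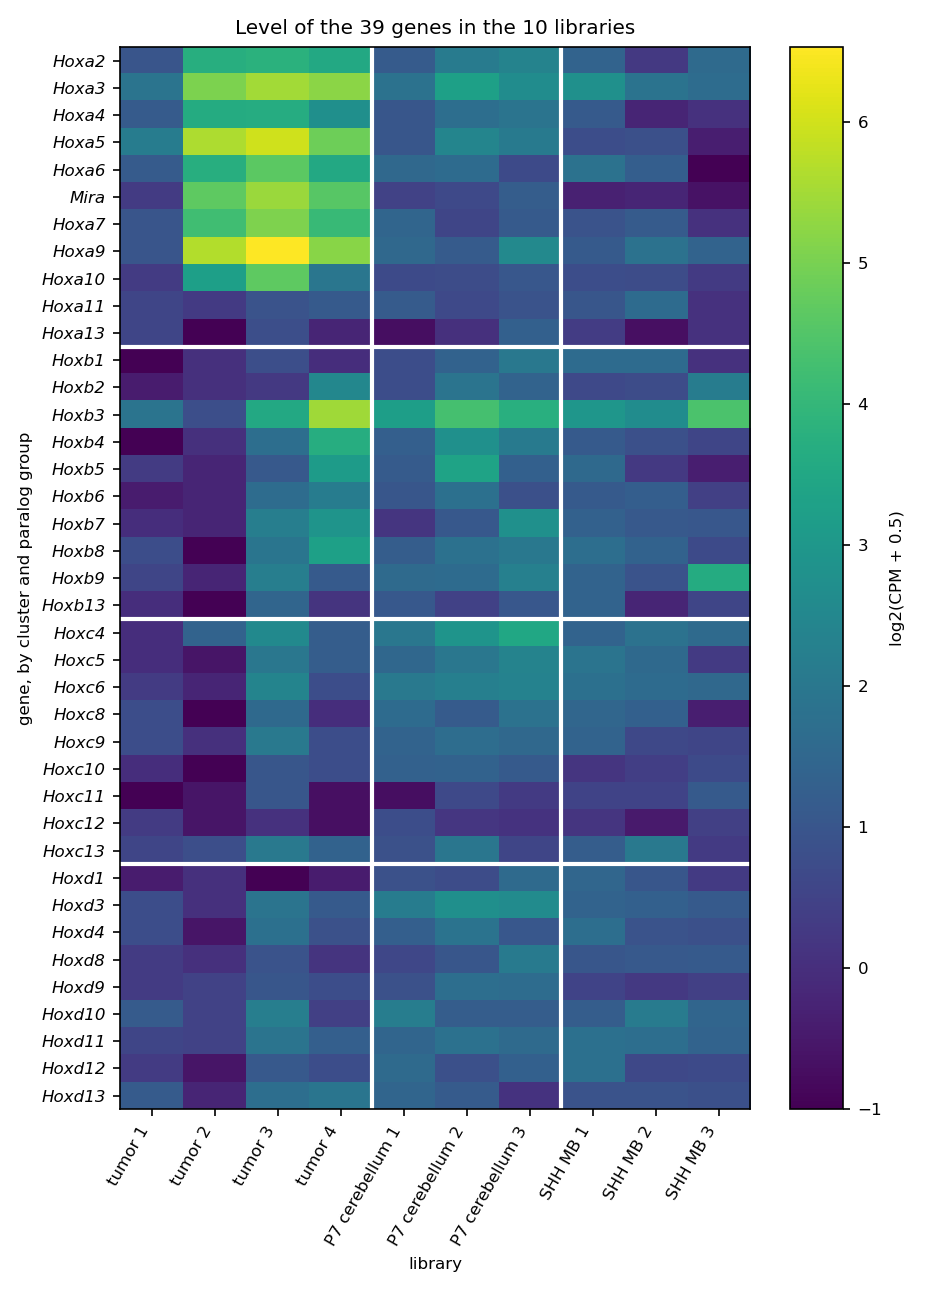
Level of the 39 genes (vertical axis, by cluster and paralog group, 3′ to 5′) in the 10 libraries (horizontal axis), coloured by log2(CPM + 0.5), to be compared along each line since genes differ in length. The bright field covers Hoxa2 to Hoxa10 and Mira in tumors 2 to 4 and ends before Hoxa11, and a second, fainter one covers Hoxb2 to Hoxb8 in tumor 4.

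Hoxa5 (chr6:52178734-52181567, minus strand), a gene of the middle of the cluster that patterns the cervical region and the lung, had the highest level per kilobase in the tumors. It was counted at 3.93, 47.8, 63.4 and 29.0 CPM in tumors 1 to 4, at 1.52, 4.87 and 3.82 CPM in P7 cerebella and at 1.23, 1.29 and 0.282 CPM in SHH MB. Tumor 1 lay within the range of the P7 cerebella and above all SHH MB, while tumors 2, 3 and 4 were far above both groups. No exon of another gene overlaps those of Hoxa5 in GENCODE vM39.

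Hoxa9 (chr6:52200080-52208069), known from leukemia, where it acts with Meis1, had the highest count of all 39 genes in tumor 3. It reached 1.47, 50.3, 91.9 and 36.2 CPM in tumors 1 to 4, against 2.43, 1.73 and 5.38 CPM in P7 cerebella and 1.7, 3.04 and 2.11 CPM in SHH MB. Relative to the mean of the P7 cerebella, tumors 2, 3 and 4 were at 15.8, 28.9 and 11.4 times this level and tumor 1 at 0.464 times. For Hoxa9, tumor 1 was thus below all 6 control libraries.

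Mira, a long noncoding RNA described as a recruiter of the methyltransferase MLL1 to the neighbouring genes, lies between Hoxa6 and Hoxa7 in the order of RefSeq. It was counted 3, 139, 302 and 191 times in tumors 1 to 4, 9, 10 and 13 times in P7 cerebella and 2, 3 and 1 times in SHH MB. It was at the floor in tumor 1 and at or under 3 counts in all SHH MB. Its RefSeq start lies in the last exon of Hoxa7 on the same strand, and how reads in shared exons were divided is not given in the sources used here, so that the values of Mira and Hoxa7 are less certain than those of Hoxa5.

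Hoxa7 (chr6:52191471-52198834), a regulator of thoracic vertebrae, was at 1.47, 18.2, 32.9 and 16.3 CPM in tumors 1 to 4, at 2.23, 0.974 and 1.7 CPM in P7 cerebella and at 1.39, 1.75 and 0.563 CPM in SHH MB. Its neighbour Hoxa6 was at 1.72, 12.7, 24.3 and 11.1 CPM in tumors 1 to 4, at 1.13 to 2.6 CPM in P7 cerebella and at 0 to 3.09 CPM in SHH MB, with no read in SHH MB 3. Both genes separated tumors 2, 3 and 4 from all other libraries and left tumor 1 among the controls.

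At the 3′ end of the block lie the genes of the hindbrain. Hoxa2, which sets the identity of the second pharyngeal arch and is expressed furthest forward of all Hox genes, was at 1.47, 12.7, 13.5 and 11.1 CPM in tumors 1 to 4, at 1.72, 3.9 and 4.67 CPM in P7 cerebella and at 2.16, 0.701 and 2.54 CPM in SHH MB. Hoxa3, required for thymus and parathyroid glands, was at 3.19, 32.5, 44.7 and 36.7 CPM in the tumors, at 3.04, 9.31 and 5.8 CPM in P7 cerebella and at 6.33, 3.16 and 2.68 CPM in SHH MB. Hoxa4 was at 1.72, 12.0, 12.1 and 6.29 CPM in the tumors, at 1.52, 2.81 and 3.25 CPM in P7 cerebella and at 1.7, 0.351 and 0.563 CPM in SHH MB. For these 3 genes tumors 2, 3 and 4 were at 2.49 to 7.39 times the P7 mean, and for Hoxa5, Hoxa6, Hoxa7 and Hoxa9 at 5.42 to 28.9 times.

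The block ended between Hoxa10 and Hoxa11. Hoxa10, which patterns the lumbar region and the uterus, was at 0.737, 8.92, 25.0 and 3.39 CPM in tumors 1 to 4, at 1.11, 1.19 and 1.56 CPM in P7 cerebella and at 1.23, 1.17 and 0.704 CPM in SHH MB. Hoxa11, the next gene toward the 5′ end and a regulator of the forearm, was at 0.983, 0.714, 1.39 and 1.69 CPM in the tumors, at 1.08 to 1.72 CPM in P7 cerebella and at 0.563 to 2.57 CPM in SHH MB, with 4, 4, 10 and 14 counts in tumors 1 to 4. No tumor was above all controls for Hoxa11 or Hoxa13. Opposite-strand exons of Hoxa11os overlap 43.6% of the exon bases of Hoxa11, and Gm52902 overlaps 19.0% of those of Hoxa10. Whether strand was used in counting is not given in the sources used here, so reads of such pairs cannot be told apart.

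Within the block, the 3 tumors divided the counts in similar but not identical ways. Hoxa9 took 22.9% (95% Wilson interval 20.6 to 25.3), 26.3% (24.6 to 28.0) and 20.9% (18.9 to 23.1) of the block's counts in tumors 2, 3 and 4. Hoxa10 took 4.06% (3.09 to 5.31), 7.15% (6.2 to 8.22) and 1.96% (1.36 to 2.81), so its share was highest in tumor 3 and lowest in tumor 4 with intervals that did not overlap. Hoxa3 behaved differently, with 14.8% (12.9 to 16.9) and 12.8% (11.5 to 14.1) in tumors 2 and 3 and 21.2% (19.1 to 23.4) in tumor 4. The shares of Hoxa7 (8.28%, 9.41% and 9.43%) and of Mira (11.3%, 12.0% and 13.3%) had intervals that overlapped among these tumors. The intervals cover counting error only, and tumor 1 had too few counts in the block, 67, to show such differences.

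**Figure D2:**
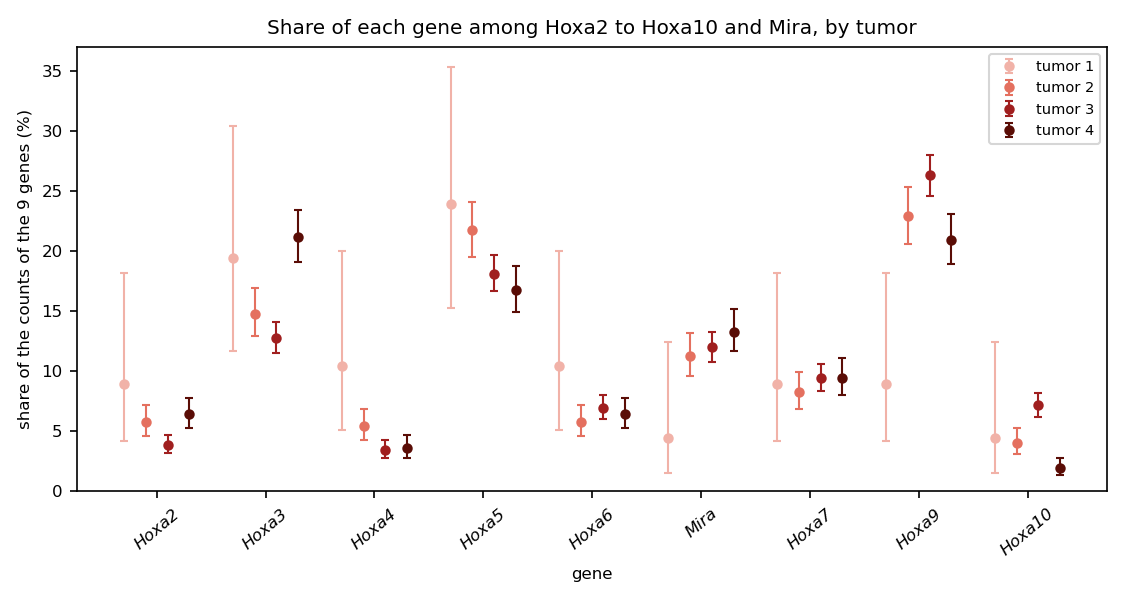
Share of each gene in the counts of Hoxa2 to Hoxa10 and Mira (vertical axis, percent) for the 9 genes (horizontal axis) in tumors 1 to 4, with 95% Wilson intervals as bars. The bars of tumors 3 and 4 do not overlap for Hoxa10 (7.15% and 1.96%) or Hoxa3 (12.8% and 21.2%), and the bars of tumor 1 are the widest because only 67 counts stand behind them.

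The first comparison asked how the tumors differ from the postnatal cerebellum of mice with the same induced, there mosaic, Smarca4 deletion. In it 4 members were higher in the tumors at an adjusted p of at most 0.05 in the quasi-likelihood test of edgeR, all in the Hoxa block: Mira, Hoxa9, Hoxa5 and Hoxa7, beside 3.99% of all genes tested. No member was lower at this limit, beside 2.27% of all genes. At the stricter rule of the study's volcano plots (log2 fold change of at least 2.5 and adjusted p of at most 0.01) no member was called, beside 0.0901% of genes called higher and 0.2% called lower. The filter on low counts was passed by 36 members (not Hoxa13, Hoxc11 and Hoxc12). At an unadjusted p under 0.05, all 9 genes of the block were higher, beside 15.3% of all genes, and Hoxb1, Hoxc4, Hoxd1, Hoxd3 and Hoxd8 were lower, 5 members beside 9.98% of all genes.

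The log2 fold change from P7 cerebella to tumors was 3.41 ± 0.76 (SE) for Hoxa5 (adjusted p = 0.0242, edgeR), 3.39 ± 0.77 for Hoxa7 (adjusted p = 0.0247), 3.84 ± 0.91 for Hoxa9 (adjusted p = 0.0295) and 4.16 ± 0.88 for Mira (adjusted p = 0.0196). The other 5 genes of the block had log2 fold changes of 1.52 to 2.89 and did not pass. All 9 were above 0, with a median of 2.89, beside a median of -0.05 over all genes tested. Since the block was limited by these same levels, its signs and median are no separate support. Because tumor 1 lay among the controls, no member was higher in all 4 tumors than in all P7 cerebella, beside 10.3% of genes without overlap in this direction, and the two-sided exact permutation test of the mean log2 CPM gave p = 0.0857 for Hoxa5 and 0.114 for Hoxa7, where 35 regroupings exist. Without tumor 1, 6 members passed the stricter rule in edgeR: Hoxa3, Hoxa5, Hoxa7, Hoxa9, Hoxa10 and Mira, with adjusted p from 4.79e-05 for Mira to 0.00583 for Hoxa10, beside 0.335% of all genes called higher in that fit. All 9 genes of the block passed an adjusted p of 0.05 in it, beside 9.64% of genes higher. DESeq2 on all 10 libraries called 5 of these 6, without Hoxa3, beside 1.45% of genes, and limma on the deposited VST values called none, beside 0.0325%.

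The second comparison set the tumors against SHH MB, a tumor of the same lineage with an active Hedgehog pathway, and shares the 4 tumors with the first. Genotype, MYC, transplantation and label age differ together between these groups. Hoxa5 and Mira were called at the stricter rule, 2 of 36 members tested, beside 0.124% of genes called higher, and no member was called lower, beside 0.477%. At an unadjusted p under 0.05, the 9 genes of the block were higher, beside 12.7% of all genes, and Hoxd1 alone was lower, beside 7.09%. The log2 fold change was 5.24 ± 0.88 for Hoxa5 (adjusted p = 0.00554, edgeR). For Mira, 635 counts in the 4 tumors stood against 6 in the 3 SHH MB, a ratio of 93.2 after scaling for library size, with a 95% counting interval of 42.6 to 255. The test of Mira gave an adjusted p of 0.0056 (edgeR). At an adjusted p of at most 0.05 in edgeR, 6 members were higher, beside 2.43% of genes, and none was lower, beside 2.26%: in addition to these 2, Hoxa3 (log2 fold change 2.86 ± 0.71, adjusted p = 0.0378), Hoxa4 (3.23 ± 0.73, 0.0266), Hoxa7 (3.78 ± 0.8, 0.0193) and Hoxa9 (4.28 ± 0.94, 0.0231).

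Hoxa4, Hoxa5 and Mira, 3 of 36 members tested, were higher in all 4 tumors than in all 3 SHH MB, a share near the background of 7.83% of genes without overlap in this direction, each with a two-sided exact permutation p of 0.0571. For Hoxa4 the gap between tumor 1 (1.72 CPM) and SHH MB 1 (1.7 CPM) was far smaller than the spread in either group. For Mira, tumor 1 and SHH MB 2 both had 3 counts, at the floor, and were set apart by the scaling of the libraries alone (0.737 and 0.351 CPM). The calls of Hoxa5 and Mira depended on single libraries. No member was called when tumor 2, tumor 4 or a single SHH MB, whichever it was, was left out, and 2 were called without tumor 3. Without tumor 1, 8 members were called, which are the block except Hoxa6, beside 0.291% of all genes called higher in that fit. With all libraries, DESeq2 called 8 members, beside 1.58% of genes, and limma 1, beside 0.0434%. The log2 fold change of Hoxa5 stayed between 3.6 and 5.57 and its adjusted p at or under 0.0419 in all 15 alternatives that could give it, and that of Mira between 3.39 and 6.61 with an adjusted p at or under 0.0471.

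**Figure D3:**
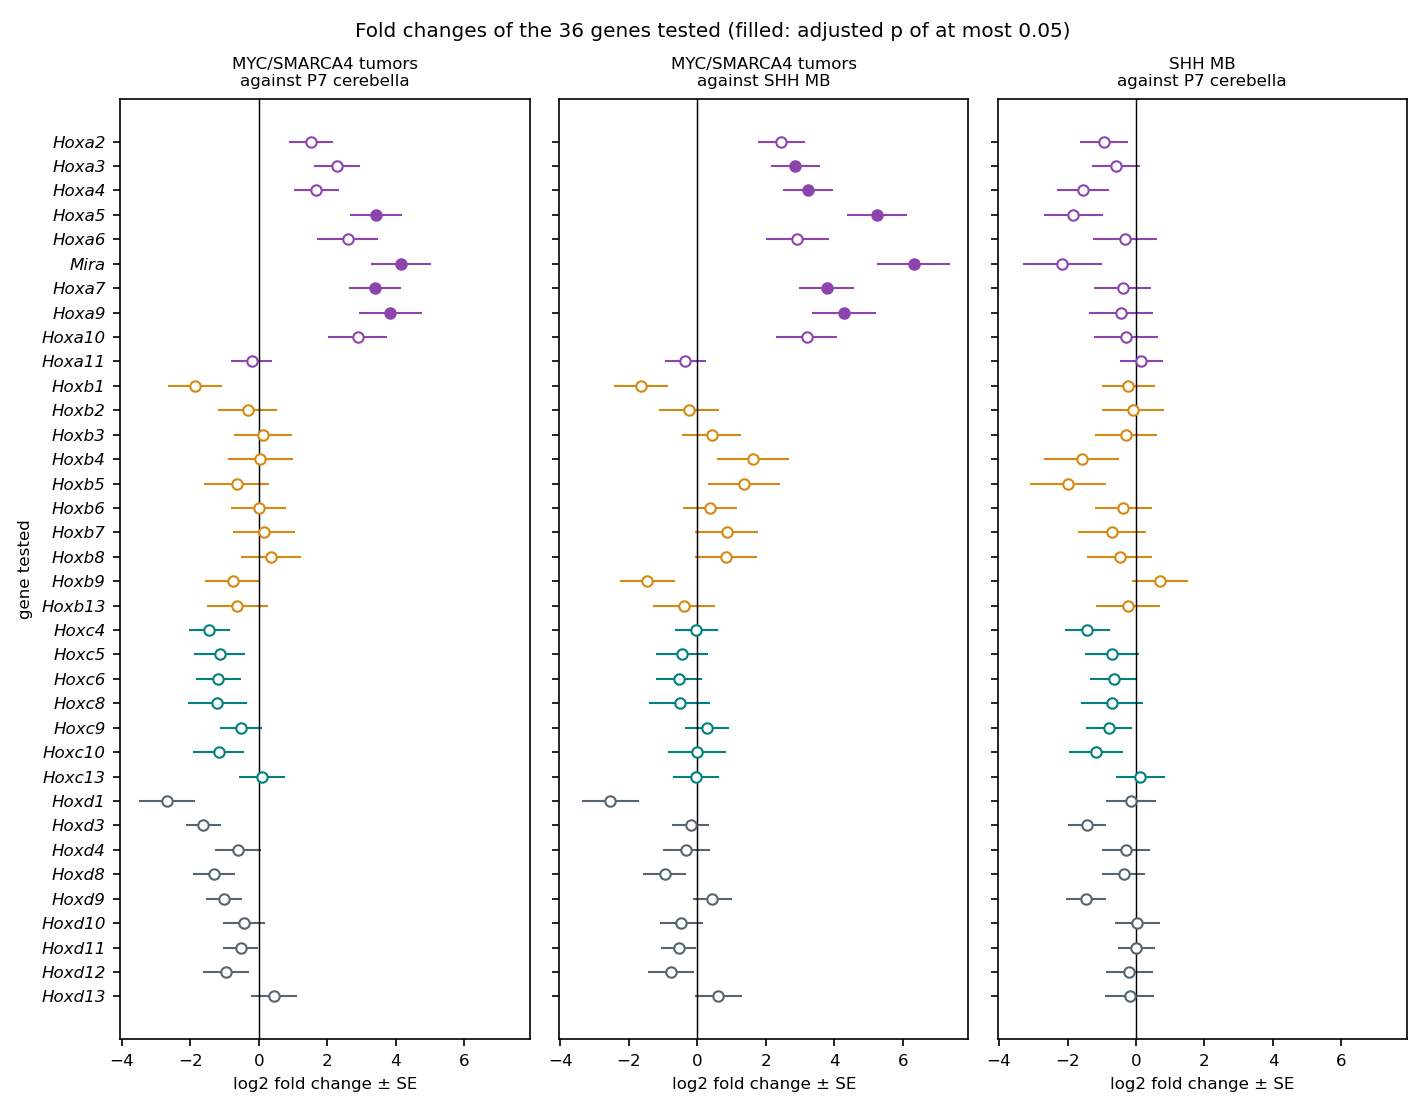
Log2 fold change with its SE (horizontal axis, edgeR) for the 36 members that passed the filter on low counts (vertical axis, coloured by cluster) in the 3 comparisons, filled where the adjusted p was at most 0.05. The 9 genes from Hoxa2 to Hoxa10 and Mira lie right of 0 in both comparisons of the tumors, with medians of 2.89 and 3.23, and left of 0 in the comparison of SHH MB with P7 cerebella.

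The Hoxb cluster, whose 3′ genes pattern the hindbrain and upper spinal cord, did not separate the groups but separated tumor 4 from the other tumors. Hoxb3, the member with the highest level per kilobase of this cluster, was at 3.19, 1.25, 11.2 and 43.5 CPM in tumors 1 to 4, at 8.81, 19.4 and 13.0 CPM in P7 cerebella and at 7.25, 5.84 and 20.7 CPM in SHH MB. Hoxb4, known for its role in blood stem cells, was at 0, 0.535, 2.78 and 12.5 CPM in tumors 1 to 4, at 1.93, 6.39 and 3.68 CPM in P7 cerebella and at 0.986 to 1.7 CPM in SHH MB. Tumor 4 was above all 6 controls in both genes, and tumors 1 and 2 were below all of them.

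Hoxb8, a gene of the brachial cord and of myeloid progenitors, was at 1.23, 0, 3.33 and 9.31 CPM in tumors 1 to 4, at 1.82 to 3.54 CPM in P7 cerebella and at 1.13 to 2.78 CPM in SHH MB. Tumor 4 exceeded all controls in Hoxb2, Hoxb3, Hoxb4, Hoxb6, Hoxb7 and Hoxb8 and fell short in Hoxb5, at 8.35 CPM against 9.85 CPM in P7 cerebellum 2. The series of high levels in tumor 4 ended at Hoxb8, since Hoxb9 was at 1.69 CPM and Hoxb13 at 0.605 CPM there. Summed over Hoxb2 to Hoxb8, tumors 1 to 4 had 6.14, 3.39, 26.5 and 89.8 CPM, P7 cerebella 17.6, 46.4 and 32.0 CPM and SHH MB 19.0, 14.6 and 29.4 CPM.

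None of the 10 Hoxb members passed an adjusted p of 0.05 in any comparison of the tumors, with or without tumor 1. Their median log2 fold change was -0.17 against P7 cerebella and 0.39 against SHH MB, and the SE of the fold changes against P7 cerebella ranged from 0.78 to 0.95. Exons of Hoxb3os on the opposite strand overlap 51.5% of the exon bases of Hoxb3 and 29.7% of those of Hoxb2. Hoxb3os itself had 8 counts in tumor 4 and 14 in SHH MB 3, and at most 5 in the other libraries. Among the controls Hoxb9 stood out in SHH MB 3, with 84 counts (11.8 CPM) against 14 and 12 in SHH MB 1 and 2, Hoxb5 in P7 cerebellum 2 with 91 counts against 17 and 14, and Hoxb7 in P7 cerebellum 3 with 45 counts against 6 and 15. These 3 values were chosen for mention after the data had been seen.

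**Figure D4:**
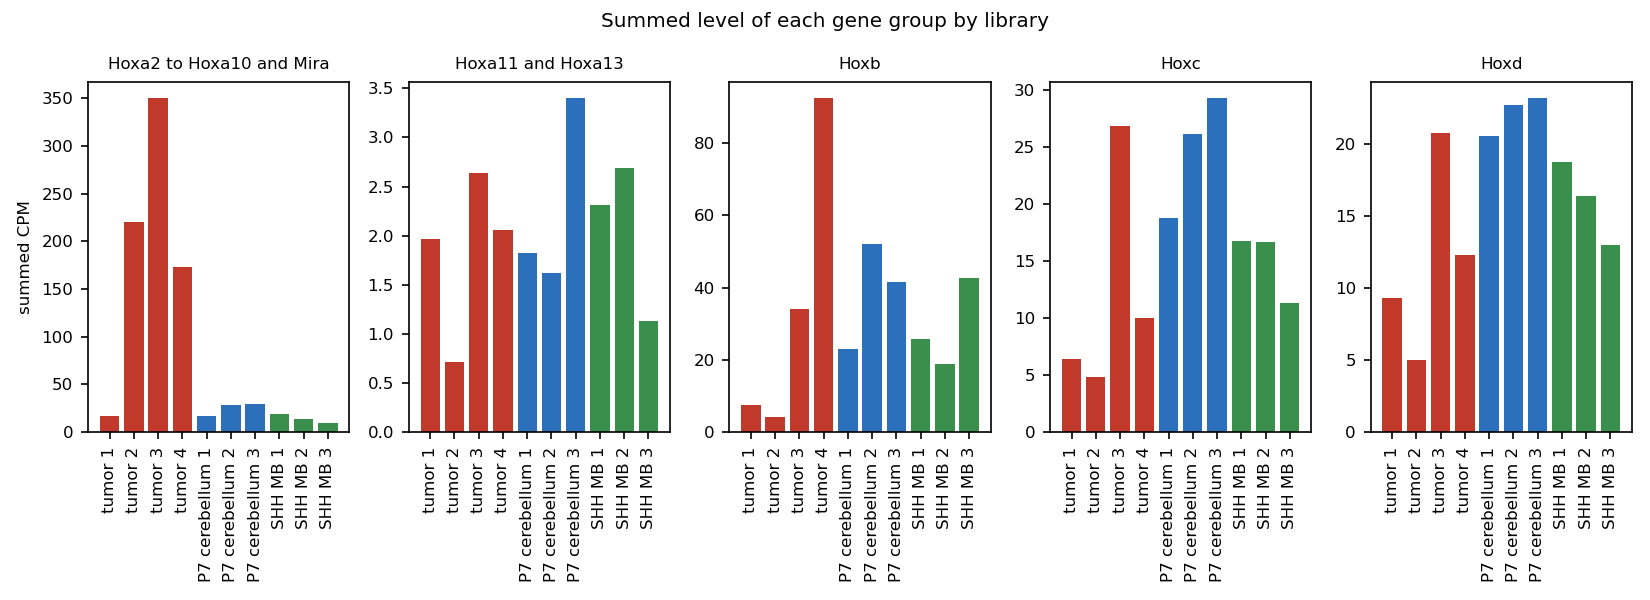
Summed CPM (vertical axis, from 0, scale differing among the panels) of Hoxa2 to Hoxa10 with Mira, Hoxa11 with Hoxa13, and the Hoxb, Hoxc and Hoxd members in each library (horizontal axis; red tumors, blue P7 cerebella, green SHH MB). Tumors 2, 3 and 4 lead in the first panel, tumor 4 leads in the Hoxb panel at 92.5 CPM, and tumors 1, 2 and 4 are the lowest libraries in the Hoxc panel.

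The Hoxc and Hoxd clusters, which pattern trunk and limbs, were low in all libraries. Summed Hoxc levels were lowest in tumor 2 (4.82 CPM), tumor 1 (6.39 CPM) and tumor 4 and reached 26.9 CPM in tumor 3, beside 18.8, 26.2 and 29.3 CPM in P7 cerebella and 16.8, 16.7 and 11.3 CPM in SHH MB. Summed Hoxd levels were 9.34, 5.0, 20.8 and 12.3 CPM in tumors 1 to 4, 20.6, 22.7 and 23.2 CPM in P7 cerebella and 18.8, 16.4 and 13.0 CPM in SHH MB. Tumors 1, 2 and 4 were thus below the controls in both sums, and tumor 3 was within their range.

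Hoxd1, whose position is the 3′ end of its cluster, was counted 1, 3, 0 and 2 times in tumors 1 to 4, 13, 11 and 18 times in P7 cerebella and 15, 13 and 5 times in SHH MB. All tumors were at or under the floor and below all controls, beside 10.7% of genes lower without overlap against P7 cerebella and 8.3% against SHH MB. The two-sided exact permutation test gave p = 0.0286 in each comparison, the smallest it can give with 35 regroupings, but the adjusted p of edgeR was 0.0682 and 0.102. Hoxd3, a partner of Hoxa3 in the neck, was at 1.23, 0.535, 3.19 and 1.69 CPM in the tumors and at 3.95, 6.17 and 5.66 CPM in P7 cerebella (log2 fold change -1.62 ± 0.52, adjusted p = 0.0807, edgeR). Exons of Hoxd4 and Gm28230 on the same strand overlap 38.2% of the exon bases of Hoxd3, which makes Hoxd3 and Hoxd4 uncertain. Hoxc10, expressed in the lumbar cord, was the third member without overlap against P7 cerebella, at 0 to 1.53 CPM in the tumors and 1.7 to 2.06 CPM in P7 cerebella (exact permutation p = 0.114).

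The remaining Hoxc and Hoxd members had between 0 and 75 counts in a library, the highest for Hoxc4 in P7 cerebellum 3. Hoxc4, the member with the highest level per kilobase in the tumors of its cluster, was at 0.491, 2.14, 5.41 and 1.81 CPM in tumors 1 to 4, at 3.44, 6.93 and 10.6 CPM in P7 cerebella and at 2.16 to 3.04 CPM in SHH MB. Hoxd10, whose window is shown above, was at 1.72, 0.892, 4.16 and 0.847 CPM in the tumors, at 1.84 to 4.05 CPM in P7 cerebella and at 1.85 to 3.86 CPM in SHH MB, with overlap among the groups. Against P7 cerebella, 6 of 7 Hoxc members tested and 8 of 9 Hoxd members had a log2 fold change below 0, with medians of -1.17 and -0.97. Of all 29952 genes tested, 15549 were below 0, with a median of -0.05. None of these members passed, with the unadjusted counts given above. Without tumor 1 these medians were -1.01 and -0.96, beside -0.25 over all genes in that fit, and again none passed in either comparison. The 3 members that failed the filter on low counts had at most 14 counts (Hoxa13), 12 counts (Hoxc11) and 12 counts (Hoxc12) in any library.

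Since genes of different length cannot be compared by CPM, levels were also divided by the length of the canonical GENCODE transcript. As a measure of counts on genes that are silent in brain, 354 vomeronasal receptor genes were averaged in the same way. They had 0.0861 to 0.158 CPM per kilobase in the controls but 0.0552, 0.0177, 0.136 and 0.0457 in tumors 1 to 4. The mean level per kilobase of the Hoxc genes was 5.53, 13.0, 9.49 and 10.5 times the vomeronasal level in tumors 1 to 4. In the controls it was 6.26 to 8.86 times. For the Hoxd genes it was 7.99, 13.3, 7.23 and 12.7 times in tumors 1 to 4 and 6.89 to 8.38 times in the controls. For Hoxa11 and Hoxa13 it was 7.39, 8.36, 4.02 and 9.34 times in tumors 1 to 4 and 2.37 to 5.75 times in the controls. The lower Hoxc and Hoxd levels of tumors 1, 2 and 4 thus went along with lower counts on vomeronasal genes, and the part of this in the result was not tested. Hoxa2 to Hoxa10 without Mira stood at 6.33 to 11.1 times the vomeronasal level in the controls. They stood at 16.4, 638, 131 and 190 times in tumors 1 to 4. The low vomeronasal levels of tumors 1, 2 and 4 raise all ratios there. Before this division, tumor 1 had 0.908 CPM per kilobase for Hoxa2 to Hoxa10, beside 0.545 to 1.58 in the controls. For Hoxb the ratio was 92.1 in tumor 4, 6.27 to 11.4 in tumors 1 to 3 and 7.45 to 22.6 in the controls. The most 5′ Hoxa gene with more than 3 counts was of paralog group 11 or 13 in every library, but with at least 10 counts it was of group 5, 10, 11 and 11 in tumors 1 to 4, so the 5′ limit read from counts alone moves with the floor.

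**Figure D5:**
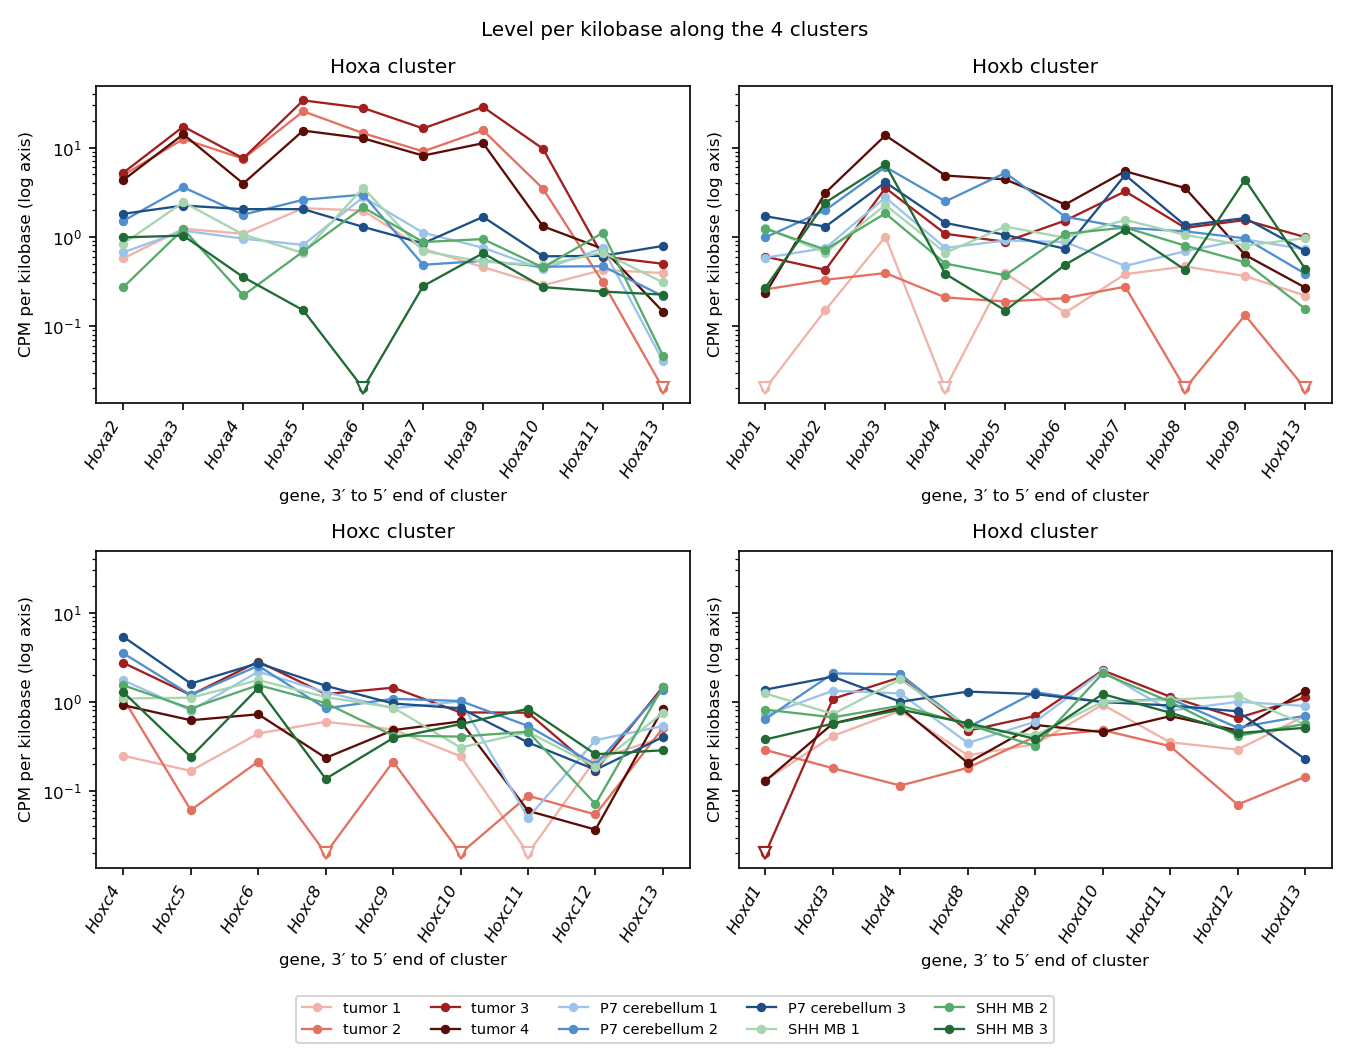
Level per kilobase of transcript (vertical axis, CPM per kilobase on a log axis) along each cluster from its 3′ to its 5′ end (horizontal axis), 1 line per library, with open triangles at the lower edge for genes without a read. Tumors 2, 3 and 4 run above all other libraries from Hoxa2 to Hoxa10 and meet them at Hoxa11, tumor 4 leads over much of Hoxb2 to Hoxb8, and the lines of the Hoxc and Hoxd panels mix.

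SHH MB and P7 cerebella, the third comparison, hold no MYC construct and share groups with the others. No member passed an adjusted p of 0.05 in the main edgeR fit, beside 0.177% of genes higher and 0.0467% lower. At the stricter rule none was called in edgeR, beside 0.01% of genes called higher, or in DESeq2 or limma. Hoxa4 and Hoxa5, lower in SHH MB, each passed an adjusted p of 0.05 in 1 of 14 alternatives. Of 36 members, 31 had a log2 fold change below 0 in SHH MB, beside 16825 of 29952 genes. The median was -0.42 beside -0.09 for all genes. Hoxd3 (-1.43), Hoxd9 (-1.45) and Hoxc4 (-1.42) had an unadjusted p under 0.05, of 0.0241, 0.027 and 0.047, 3 lower members beside 3.64% of all genes, and no member was higher, beside 5.16%. Hoxa5, Hoxb4, Hoxc4, Hoxc6, Hoxc10, Hoxd3, Hoxd9 and Mira were lower in all SHH MB than in all P7 cerebella, 8 members beside 19.0% of all genes, and 3 against 3 libraries allow no exact permutation p below 0.1. Hoxa5 was at 1.52 to 4.87 CPM in P7 cerebella and 0.282 to 1.29 CPM in SHH MB, so its larger fold change in tumors against SHH MB than against P7 cerebella goes along with a lower level in SHH MB.

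Other RNAs of the clusters were counted at low levels. Of 29 genes listed inside the clusters, 10 passed the filter and none passed an adjusted p of 0.05. Gm15050 was without a read in tumor 1, had 18, 22 and 30 counts in the other tumors and 1 to 3 in each control. LOC115490409 was also without a read in tumor 1, and its counts were 18, 39 and 53 in tumors 2, 3 and 4 against 2 to 13 in each control. Hotairm1, a myeloid RNA at the 3′ end of Hoxa, was at 0.246, 1.43, 3.19 and 3.02 CPM in tumors 1 to 4 and at 0.234 to 1.27 CPM in the controls. Gm11539 of the Hoxb cluster was at 2.21, 12.5, 18.0 and 11.5 CPM in tumors 1 to 4 and at 2.81 to 8.59 CPM in the controls. These 4 RNAs of the 29, 3 of Hoxa and 1 of Hoxb, were above all controls in each of tumors 2, 3 and 4 and not in tumor 1. The share of all genes that were so in all 3 tumors was not computed. Singly, 6, 12 and 7 of the 29 were above all controls in tumors 2, 3 and 4, beside 29.3%, 25.8% and 27.8% of genes tested. Without tumor 1, Gm15050 and LOC115490409 passed in both comparisons. Gm11539 then passed against P7 cerebella (log2 fold change 1.8 ± 0.34, adjusted p = 0.0037, edgeR) and Hotairm1 against SHH MB. That fit had 9.64% of all genes higher against P7 cerebella and 5.0% against SHH MB. Evx1, the even-skipped homologue that flanks Hoxa13, was at 0.357 to 1.21 CPM in the tumors and 2.74 to 4.01 CPM in P7 cerebella and fell (log2 fold change -2.2 ± 0.57, adjusted p = 0.042, edgeR). Haglr of the Hoxd cluster was at 0.246 to 1.25 CPM in the tumors and 1.62 to 3.36 CPM in P7 cerebella and did not pass.

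Of 9 genes for TALE cofactors, Meis2 was higher and Meis1 lower in the tumors than in SHH MB, and none passed against P7 cerebella. Meis2, which binds DNA beside Hox proteins, was at 11.5, 96.0, 86.8 and 92.5 CPM in tumors 1 to 4, at 24.6, 41.1 and 32.8 CPM in P7 cerebella and at 5.86, 10.2 and 16.8 CPM in SHH MB. Tumors 2, 3 and 4 were above all controls, and tumor 1 was not, as for the Hoxa block. The share of all genes with this pattern was not computed, and a link of Meis2 with the block was not tested. Its log2 fold change was 2.71 ± 0.61 against SHH MB (adjusted p = 0.0252, edgeR) and 1.13 ± 0.56 against P7 cerebella (adjusted p = 0.227). Without tumor 1 these were 2.94 ± 0.34 (adjusted p = 0.000234, edgeR) and 1.39 ± 0.32 (adjusted p = 0.0106). Meis1, also a gene of granule cell precursors, was at 106, 91.7, 72.5 and 40.2 CPM in the tumors and 170 to 208 CPM in SHH MB (log2 fold change -1.26 ± 0.31, adjusted p = 0.0353, edgeR). The 4 Pbx genes did not pass in either comparison. Without tumor 1, Meis3 was lower in both comparisons and Pknox2 against P7 cerebella.

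Of 27 Polycomb genes 4 were higher in the tumors than in P7 cerebella and none was lower. They were Eed (log2 fold change 1.26 ± 0.25, adjusted p = 0.016, edgeR), Suz12 (1.18 ± 0.29, 0.0353) and Rbbp7 (1.13 ± 0.29, 0.0421), subunits of the complex that methylates histone H3 on silent Hox clusters, and its accessory subunit Aebp2. Against SHH MB none of the 27 passed. None of 14 genes of the trithorax, MLL and DOT1L group passed in either comparison. Of 20 activators and genes of the retinoic acid pathway, Cyp26b1, which degrades retinoic acid, was lower in the tumors in both comparisons (log2 fold change -2.33 ± 0.32 against P7 cerebella, adjusted p = 0.0027, and -2.79 ± 0.32 against SHH MB, adjusted p = 0.000477, edgeR), as was the receptor Rxrg. Against SHH MB, Aldh1a1, which makes retinoic acid, was higher (2.5 ± 0.58, adjusted p = 0.0291, edgeR), as was the receptor Rarg (1.29 ± 0.33, adjusted p = 0.0453). Aldh1a1 was at 31.7, 44.8, 5.14 and 23.8 CPM in tumors 1 to 4 and 2.54 to 5.96 CPM in SHH MB. Tumor 3 thus lay inside the range of SHH MB, and tumor 1 above it, unlike in the Hoxa block. Of 12 factors of the midbrain-hindbrain boundary and rhombomere 1, En1 (-3.09 ± 0.56, adjusted p = 0.0114, edgeR) and Irx2 (-2.43 ± 0.36, adjusted p = 0.00423) were lower in the tumors than in P7 cerebella, and Irx2 also against SHH MB. Without tumor 1, Pcgf6 of the Polycomb list and Wdr5 of the trithorax list were also higher than in P7 cerebella, and Lmx1a, Pax2, Pax5 and Evx2 lower. Against SHH MB, Phc1, Phc2 and Phf19 of the Polycomb list, Rxra and Pax2 were then lower as well. That fit had 9.64% of all genes higher and 6.11% lower against P7 cerebella and 5.0% and 4.75% against SHH MB. Every gene of these lists that passed with 4 tumors also passed without tumor 1.

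Markers of cells that could carry Hox RNA were measured in the same libraries. The 15 markers of brainstem and spinal cord neurons summed to 25.9 to 88.9 CPM in the tumors, 118 to 156 CPM in P7 cerebella and 148 to 174 CPM in SHH MB. Tlx3 alone made up 85.8, 88.8 and 89.2 CPM of the sums in SHH MB. It was at 24.6 to 33.4 CPM in P7 cerebella and 1.61 to 17.2 CPM in the tumors. The gap between tumors and SHH MB in this sum thus rests largely on 1 gene. Of the 14 markers tested, Slc5a7 and Tlx3 were lower in the tumors in both comparisons. Slc6a2 was lower against P7 cerebella, as was Slc6a5 without tumor 1. The 10 markers of fibroblasts and meninges summed to 250 to 486 CPM in the tumors and 485 to 590 CPM in the controls, with Twist1 higher and Postn lower in both comparisons. The 10 markers of blood and microglia summed to 610, 358, 93.3 and 231 CPM in tumors 1 to 4 and 129 to 356 CPM in the controls. Kit, which interneurons of the cerebellum also express, made up 385, 124, 28.6 and 78.4 CPM of these sums. Ptprc (5.41, 4.82, 7.08 and 12.2 CPM in tumors 1 to 4), Spi1 (2.95, 0.535, 4.86 and 5.44 CPM), Itgam (7.37, 3.93, 8.74 and 12.6 CPM) and Aif1 (2.46, 3.57, 3.89 and 4.23 CPM) were higher in tumors 3 and 4 than in tumors 1 and 2. In the controls these were at 3.52 to 10.8, 2.34 to 5.09, 3.24 to 14.3 and 1.98 to 4.98 CPM, with tumor 3 inside each range. Tumor 4 was above all controls for Ptprc and Spi1 and inside the range for Itgam and Aif1. Csf1r (53.1, 35.7, 8.74 and 34.7 CPM in tumors 1 to 4), Cx3cr1 (19.7, 14.6, 8.19 and 20.2 CPM) and Cd68 (9.34, 10.5, 6.25 and 18.1 CPM) were lowest in tumor 3. Their control ranges were 12.4 to 24.6, 8.87 to 18.9 and 4.76 to 7.87 CPM. Tumors 1, 2 and 4 were above all controls for Csf1r and Cd68, and tumors 1 and 4 for Cx3cr1. None of the 10 blood and microglia markers passed, with or without tumor 1. The 10 endothelial and mural markers summed to 559, 367, 177 and 242 CPM in tumors 1 to 4, with Kdr lower against SHH MB, the 10 myelin markers to 4100, 822, 122 and 448 CPM, with Mal higher against SHH MB, and the 10 choroid plexus markers to 88.8 to 211 CPM against 397 to 1510 CPM in the controls, with Ttr and Aqp1 lower in the tumors in both comparisons. The 10 adipocyte and muscle markers summed to 128 CPM in tumor 2 and 18.0 to 38.6 CPM in the other tumors. Fabp4 alone made up 119 CPM of the sum in tumor 2, where Adipoq, Plin1, Lep and Cidec were at 0 to 1.07 CPM. Fabp4 was higher in the tumors in both comparisons and Myod1 lower against SHH MB (log2 fold change -3.63 ± 0.51, adjusted p = 0.00196, edgeR). The 12 granule cell markers summed to 2520, 1950, 953 and 783 CPM in tumors 1 to 4 and 2170 to 2750 CPM in the controls, with Barhl1, Nhlh1 and Nhlh2 lower and Gabra6 higher in the tumors in both comparisons and Meis1 and Zic4 lower against SHH MB. Without tumor 1 the markers that passed rose from 0 to 4 of the endothelial list, from 0 to 3 of the myelin list, from 2 to 4 of the choroid plexus list and from 4 to 7 of the granule cell list against P7 cerebella, and from 1 to 4, 1 to 2, 2 to 5 and 6 to 9 against SHH MB. Those gained were lower in the tumors. No marker list had a gene at 0 in every tumor, and the part of any of these cells in the Hoxa levels was not tested.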

How the data were processed

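RNA was extracted from FFPE tissue of 4 MYC/SMARCA4 tumors, 3 P7 cerebella and 3 SHH MB, depleted of ribosomal RNA and made into single-end libraries with the CORALL kit. The authors trimmed reads with Trimmomatic 0.38.1, aligned them to GRCm39 with STAR 2.7.8a and deposited counts per gene from featureCounts 2.0.1 without normalization. They also deposited values on a log2 scale, transformed with DESeq2 (VST), and tested them with limma. Strand setting and gene annotation are not given in the sources used here. A gene meeting the rule and a marker on a list are not reported here.

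Groups were taken from the labels. All 10 libraries entered 1 quasi-likelihood fit of edgeR 4.0.16 with a mean per group, TMM factors (0.62 to 1.27) and filterByExpr. The fit used a common dispersion of 0.178 with 5.87 prior degrees of freedom, and Benjamini-Hochberg adjustment ran over all 29952 genes that passed the filter. The SE of a log2 fold change is its size divided by the square root of F. For single genes, exact permutation tests (two-sided) used log2 CPM with a prior count of 2. Labels do not say whether replicates came from separate litters, and p-values measure the spread between these libraries. Between libraries of a group, counts differed by 3.76 to 99.1 times the sampling variance, so no pair agreed within sampling noise. Intervals and floors cover counting error only. On simulated counts of 29952 genes for the tumors against P7 cerebella, 196 of 200 genes with a log2 change of 4 were recovered and 0 others called. The simulation gave all groups the same spread and all 4 tumors the same shift. In the data, pairs of tumors differed by 26.6 to 99.1 times the sampling variance and pairs of controls by 3.76 to 6.22 times. Tumor 1 also lacked the shift of the Hoxa block. The simulation thus checks the code and cannot show how the tests perform on these members.

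Genes are described library by library with at least 10 counts in at least 3 libraries or with an adjusted p of at most 0.05 in a comparison, and others by range. Genes outside the 39 are named where they lie in a cluster or belong to a fixed list and passed. The members and lists were chosen with earlier results of these data known. Positions and lengths are from GENCODE vM39 on GRCm39, where Mira has none. Promoter windows of 23 members were found in RefSeq's table, and those in UTRs were not used. Alternatives were DESeq2 1.42.0, limma 3.58.1 on the deposited VST values, RLE factors, no filter, at least 10 counts in every library, the groups compared alone, robust estimation, library sizes without mitochondrial and rRNA genes, the replicate number as a block, other thresholds, a prior count of 0.5 and each library left out.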

Additional observations from a re-analysis of the deposited data

Results flagged for a closer look

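Among the 4 MYC/SMARCA4 tumors, tumor 1 lay apart from the other 3 at the low end in 3 of the 39 genes, and no gene had a tumor apart at the high end. The level of tumor 1 was 0.8 on the log2 CPM scale for Hoxa2 (next tumor 3.51), 1.79 for Hoxa3 (next 5.03) and 0.01 for Mira (next 4.55). In these genes the gap to the next tumor took 0.91, 0.876 and 0.842 of the range over the 4 tumors, above Dixon's critical value. Chance alone gives such a gap in about 1 of 20 groups, and the genes are neighbours in the same libraries, so they are not independent. Tumor 1 also had the highest sum of myelin markers of the 4 tumors (4100 CPM), and the part of these cells in the gap was not tested.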

How the results depend on the processing

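Against P7 cerebella no member was called in edgeR, and 4 passed with an adjusted p of at most 0.05 alone, 4 were called with no filter on low counts and 5 with DESeq2. Leaving out 1 library each gave 0 to 6 called members, with 6 without tumor 1 and 0 without each other library. Against SHH MB, where 2 members were called, 6 passed with an adjusted p of at most 0.05 alone, 4 were called with no filter, 8 with DESeq2, 1 with limma on VST values, and 0 when only the groups compared entered the fit. With at least 10 counts in every library 0 were called, since 1 member was left. Leaving out 1 library each gave 0 to 8, with 8 without tumor 1, 2 without tumor 3 and 0 without tumor 2, tumor 4 or each SHH MB. The weight given to the fit without tumor 1, and its reading for the fixed lists, were choices made after the data had been seen. The counts for the lists stand beside each list. Apart from the fits with fewer genes or fewer samples, the cause was not tested. Both counts were the same with RLE factors, robust estimation, a fold limit of 1.5 on the log2 scale and library sizes without mitochondrial and rRNA genes. Between SHH MB and P7 cerebella 0 members were called in all 17 alternatives. Of the fold changes of members that passed an adjusted p of 0.05, recomputed under each alternative, 33 still passed and 27 did not against P7 cerebella, and 64 and 27 against SHH MB, all in the same direction. With a limit of 10 counts in place of 3, the most 5′ gene detected moved in 20 pairs of cluster and library and was the same in 20. A prior count of 0.5 moved the mean log2 CPM of Mira in SHH MB from -0.91 to -1.64.

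With the replicate number as a block, 0 members were called against P7 cerebella and 0 against SHH MB. Numbers did not mark paired samples (correlations of deviations of tumors with P7 cerebella 0.05, 0 and 0.16, with SHH MB -0.05, -0.1 and -0.27). Depth limits Hoxc and Hoxd, where a library often held fewer than 10 counts per gene, and a missed threshold there does not show equal levels.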
